A study of Homo sapiens with 12 samples.

Results

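The TIE receptors and the angiopoietins were followed through the formation of blood cells from a human embryonic stem cell line. The 5 genes were the receptor TEK (also called TIE2), its partner TIE1, the ligands ANGPT1 and ANGPT2, and the receptor phosphatase PTPRB (also called VE-PTP). They were chosen by name, each matched 1 line of the expression table, and they make up 5 of its 56593 distinct gene symbols. H1 is an established human embryonic stem cell line, and all 12 libraries came from it. Undifferentiated H1 hESCs were compared with APLNR+ mesodermal cells at day 2, CD31+CD34+ hemogenic endothelial progenitors at day 5 and CD43+ hematopoietic progenitors at day 8, with 3 libraries in each population. Differentiation used activinA with BMP4 for the first 2 days and VEGF with bFGF from then on, so time in culture, growth factors and the surface marker used for collection change together between populations and cannot be told apart. CD31, CD34 and CD43 are the products of PECAM1, CD34 and SPN.

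TEK is a receptor tyrosine kinase of endothelial cells that is also carried by blood stem cells. ANGPT1 activates it, and ANGPT2 binds the same site and acts as a weak agonist or as an antagonist depending on context. TIE1 binds no angiopoietin strongly on its own but forms complexes with TEK and modifies its signal. PTPRB removes phosphate from TEK and is held near VE-cadherin at endothelial junctions. In adult vessels ANGPT1 comes mainly from mural and mesenchymal cells and ANGPT2 from the endothelium itself, where it is stored and released on activation.

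Values are FPKM, a read density scaled for gene length and library size, and can be compared between genes. Summed FPKM ranged from 567793 to 1.56e+06 between libraries, with 10.4% to 66.2% of it in small RNA genes. Protein-coding genes summed to between 351977 and 494014 FPKM. No further scaling was applied in the main fit, so changes between populations depend on the scaling as deposited. Log2 changes are differences of log2(FPKM + 1), a scale that understates changes of genes below a few FPKM. A gene was called raised or lowered where the change reached 2-fold on that scale with an adjusted p under 0.05 in limma, fitted over 14840 genes and all 12 libraries. None of the 5 genes was listed at 0 in any library. The labels do not say that libraries of a population came from separate cultures, so p-values measure the spread between these libraries, which may be technical. FPKM gives no absolute depth. Low-value steps put the relative depth of the libraries between 0.555 and 1.26 times that of CD43+ replicate 3, with replicate 1 the shallowest in each population. EEF1A1, a gene of all cells, was listed at 0 in 6 libraries, so an exact 0 can be a failed estimate. Of 12 endothelial markers, 11 had a mean of at least 1 FPKM in CD31+CD34+ cells and all 12 in CD43+ cells. Of 10 blood markers, 8 did so in CD43+ cells, where PTPRC, the common leukocyte antigen CD45, had a mean of 0.197 FPKM.

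**Figure D1:**
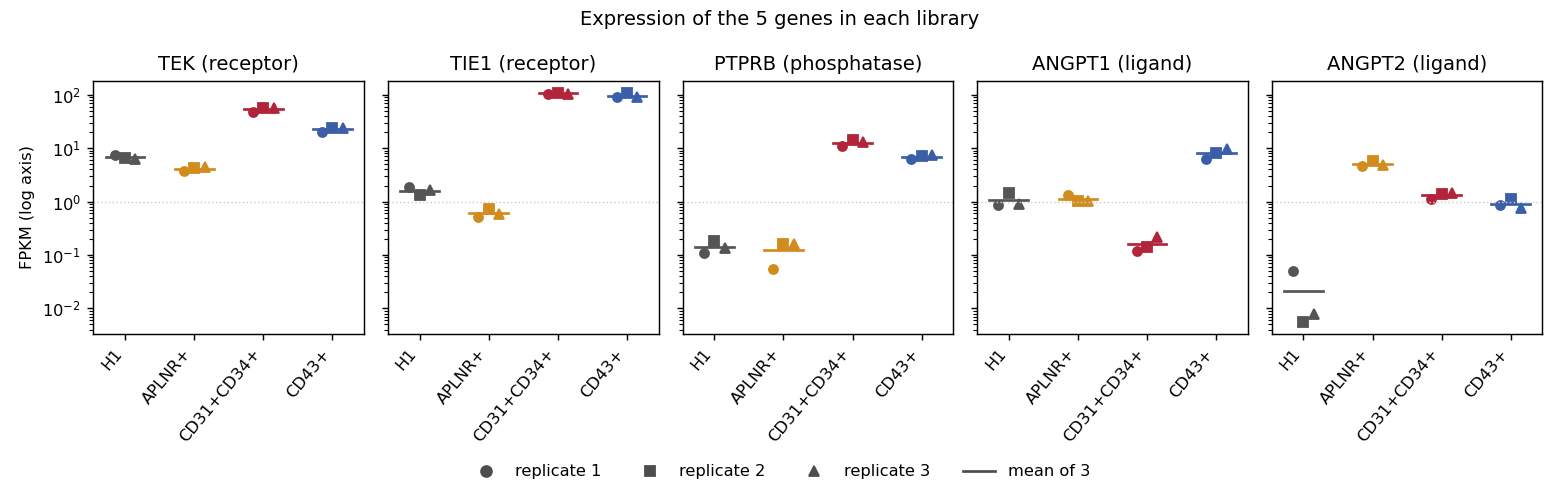
FPKM of TEK, TIE1, ANGPT1, ANGPT2 and PTPRB in each library of H1, APLNR+, CD31+CD34+ and CD43+ cells on a log axis, where each point is 1 library and each bar a mean of 3. TEK, TIE1 and PTPRB are highest in CD31+CD34+ cells (means of 53.5, 107 and 12.8 FPKM), ANGPT1 in CD43+ cells (8.10 FPKM) and ANGPT2 in APLNR+ cells (5.08 FPKM).

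Both receptors rose on entry into the CD31+CD34+ state, TIE1 from a mean of 0.613 FPKM to 107 FPKM. In CD43+ cells TEK fell by 1.21 on the log2 scale, and the change of TIE1 was not called. Before that, TEK was already measurable at several FPKM in undifferentiated hESCs, where TIE1 was at 1.90 FPKM or less. In bulk samples such as these, fewer cells of a type and less RNA per cell cannot be told apart.

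TEK measured 7.40, 6.51 and 6.33 FPKM in H1 replicates 1 to 3. It measured 3.66, 4.30 and 4.45 FPKM in APLNR+ cells, 47.0, 56.5 and 56.9 FPKM in CD31+CD34+ cells, and 19.8, 23.5 and 24.4 FPKM in CD43+ cells. The ranges of the 4 populations did not overlap, and the order from high to low was CD31+CD34+, CD43+, H1 and APLNR+. The mean of CD31+CD34+ cells (53.5 ± 5.58 FPKM, SD, n = 3) was 12.9 times that of APLNR+ cells (4.14 ± 0.417), and the rise was 3.40 ± 0.11 in log2 units (SE, adjusted p of limma = 1.99e-10). The mean of CD43+ cells was 22.6 ± 2.43 FPKM, and CD31+CD34+ cells stood 2.37 times above it (log2 change of -1.21 ± 0.11 SE from CD31+CD34+ to CD43+, limma adjusted p = 2.57e-06). TEK in CD43+ cells was nevertheless above H1 by 1.60 on the log2 scale (limma adjusted p = 6.58e-08) and above APLNR+ cells by 2.20 (limma adjusted p = 4.74e-09). From H1 to APLNR+ cells the log2 change was -0.59 ± 0.11 (SE, limma adjusted p = 0.000754), which did not reach the 2-fold limit.

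TIE1 measured 1.90, 1.32 and 1.62 FPKM in H1 replicates 1 to 3 and 0.513, 0.738 and 0.589 FPKM in APLNR+ cells. It measured 105.8, 110.4 and 104.1 FPKM in CD31+CD34+ cells and 89.1, 108.3 and 89.5 FPKM in CD43+ cells. All 6 later libraries stood far above all 6 earlier ones, and among the later ones CD43+ replicate 2 reached into the CD31+CD34+ range. The CD31+CD34+ mean (107 ± 3.28 FPKM, SD, n = 3) was 174 times the APLNR+ mean (0.613 ± 0.115), and the rise was 6.06 ± 0.11 in log2 units (SE, adjusted p of limma = 3.20e-12). From CD31+CD34+ to CD43+ cells (95.6 ± 10.96 FPKM) the log2 change was -0.16, with a 95% interval of -0.40 to 0.07 (limma adjusted p = 0.226). These neighbours in the order of levels therefore did not differ beyond their spread. From H1 to APLNR+ cells the log2 change was -0.69 ± 0.11 (SE, limma adjusted p = 0.000174), short of the 2-fold limit on this scale, and the H1 mean was 2.63 times the APLNR+ mean in FPKM. With a pseudocount of 0.1 that change was -1.26 and was called.

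The TIE1 to TEK ratio within a library is free of the scaling of that library. It was 0.203, 0.256 and 0.256 (lowest, median, highest) in H1 and 0.132, 0.140 and 0.172 in APLNR+ cells. It was 1.83, 1.96 and 2.25 in CD31+CD34+ cells and 3.67, 4.50 and 4.61 in CD43+ cells. TEK was thus the more abundant receptor in every library of the first 2 populations and TIE1 in every library of the last 2. The ratio was higher in CD43+ than in CD31+CD34+ cells by 1.08 ± 0.14 (log2, SE), with no overlap. An exact two-sided permutation test gave p = 0.1, the smallest that 3 against 3 libraries allow, and 0.111 after Benjamini-Hochberg adjustment over the 30 ratio comparisons computed.

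CDH5, which encodes VE-cadherin, was taken as an endothelial reference. In bulk libraries its transcripts need not come from the same cells as those of the receptors. The ratio of TIE1 to CDH5 lay between 1.01 and 1.34 in CD31+CD34+ libraries and between 2.44 and 3.36 in CD43+ libraries. TEK moved less against CDH5, from between 0.521 and 0.595 to between 0.612 and 0.746. Neither pair of ranges overlapped (exact permutation p = 0.1 for each, 0.111 adjusted over the same 30 comparisons). PECAM1, which encodes CD31 and is also carried by blood cells, gave the opposite picture. TIE1 to PECAM1 went from 1.87–2.08 in CD31+CD34+ cells to 0.857–1.08 in CD43+ cells, and TEK to PECAM1 from 0.925–1.02 to 0.233–0.240. The direction of the receptors relative to other genes at this step therefore depended on the reference gene for both TIE1 and TEK.

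**Figure D2:**
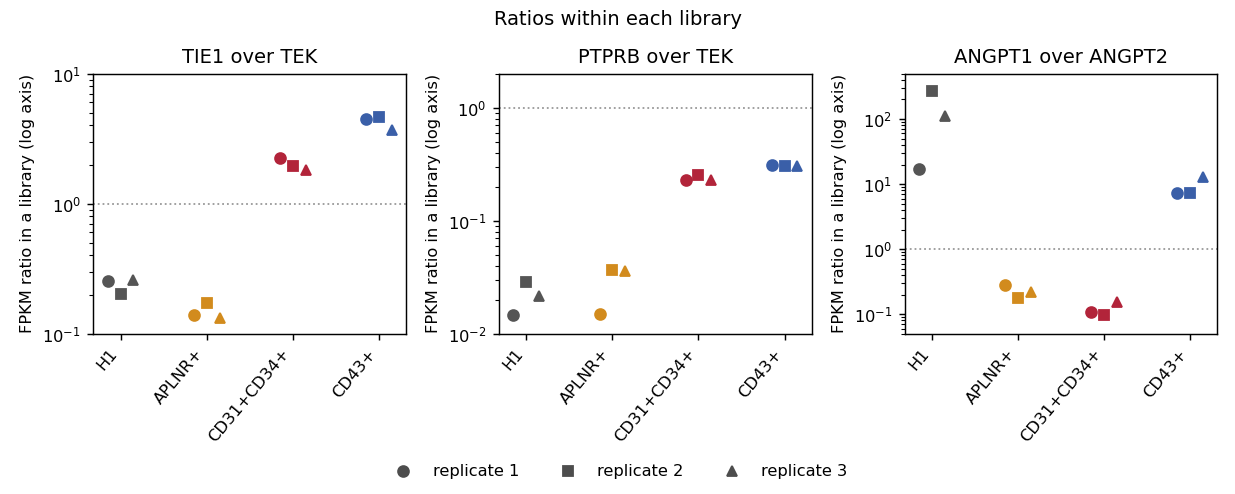
Within-library ratios of FPKM (TIE1 over TEK, PTPRB over TEK, ANGPT1 over ANGPT2) on log axes, with 1 point per library in each population and a line at equal levels. TIE1 exceeds TEK in all CD31+CD34+ and CD43+ libraries, with medians of 1.96 and 4.50, and ANGPT1 exceeds ANGPT2 in H1 and CD43+ libraries only.

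The promoters of the receptor genes are shown because TEK and TIE1 rose together at the CD31+CD34+ step. RefSeq start sites on GRCh38.p14 were used for these 2 of the 5 genes, and the 250 bases before the start are given 5′ to 3′ on the plus strand, on which both genes lie. No start was found for PTPRB, and the ligand genes were left out of the promoter step. Capitals mark GGAA or its complement TTCC, the core letters bound by ETS factors, a family that includes the endothelial regulators ERG and FLI1. The window of TIE1 is chr1:43300732-43300981. RefSeq gives TEK 2 starts, and the window of the first, chr9:27108975-27109224, is printed. That of the second, chr9:27109200-27109449, runs past the first start into transcribed sequence, so its matches are given without its letters.
TIE1: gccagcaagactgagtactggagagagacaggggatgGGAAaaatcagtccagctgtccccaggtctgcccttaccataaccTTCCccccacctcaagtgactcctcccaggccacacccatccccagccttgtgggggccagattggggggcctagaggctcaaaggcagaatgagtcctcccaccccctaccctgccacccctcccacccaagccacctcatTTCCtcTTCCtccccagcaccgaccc
TEK: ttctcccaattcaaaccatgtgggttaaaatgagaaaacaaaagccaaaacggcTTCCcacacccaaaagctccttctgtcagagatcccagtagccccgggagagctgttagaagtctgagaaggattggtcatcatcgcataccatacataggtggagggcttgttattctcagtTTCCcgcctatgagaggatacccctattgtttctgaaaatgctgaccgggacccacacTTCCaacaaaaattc

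The TIE1 window held 4 GGAA matches over both strands, the first TEK window 3 and the second TEK window 6. Of 35116 promoter windows of the same length, 92.7% held at least 1, 34.3% held 4 or more, 55.1% held 3 or more and 9.14% held 6 or more. The order of TIE1 and TEK in this count therefore depended on which TEK start was taken. The longer AGGAAG, which overlaps GGAA, occurred once in the TIE1 window and in neither TEK window, against 28.7% of all promoters. GATA, the core of GATA factor sites, was absent from the TIE1 window, present once in the first TEK window and 4 times in the second. At least 1 match was found in 45.6% of all promoters and 4 or more in 2.83%. CANNTG, the E-box, occurred in all 3 windows and in 61.8% of all promoters, and GTAAACA, a forkhead motif, in none of them and in 2.98% of all promoters. GC content was 61.6% for TIE1 and 46.4% for each TEK window, and the median over all promoters was 58%. These matches describe letters in the windows and show no binding.

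PTPRB followed the rise of the receptors from a level close to 0. It measured 0.109, 0.185 and 0.135 FPKM in H1 replicates 1 to 3 and 0.0542, 0.158 and 0.159 FPKM in APLNR+ cells. It measured 10.8, 14.4 and 13.2 FPKM in CD31+CD34+ cells and 6.16, 7.15 and 7.47 FPKM in CD43+ cells. The first 2 populations overlapped, and both later populations stood apart from them and from each other. The mean rose 103-fold, from 0.124 ± 0.0600 FPKM in APLNR+ cells to 12.8 ± 1.82 FPKM (SD, n = 3) in CD31+CD34+ cells, or 3.61 ± 0.11 in log2 units (SE, adjusted p of limma = 1.20e-10). In CD43+ cells the mean was 6.93 ± 0.684 FPKM. The log2 change from CD31+CD34+ cells was -0.79, with a 95% interval of -1.04 to -0.55 (limma adjusted p = 8.76e-05), so the difference exceeded the spread between libraries without reaching the 2-fold limit. From H1 to APLNR+ cells it was -0.03, with a 95% interval of -0.27 to 0.22 (limma adjusted p = 0.865).

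Relative to its substrate TEK, PTPRB stood at a ratio of 0.0147, 0.0213 and 0.0284 (lowest, median, highest) in H1 and 0.0148, 0.0356 and 0.0367 in APLNR+ cells. The ratio was 0.229, 0.231 and 0.254 in CD31+CD34+ cells and 0.304, 0.306 and 0.311 in CD43+ cells. TEK transcript was therefore present in the early populations with little transcript of its phosphatase, and the ratio was highest in CD43+ cells. The difference between the last 2 populations was 0.37 ± 0.05 (log2, SE, exact permutation p = 0.1, 0.111 adjusted over the 30 ratio comparisons).

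Exons of PTPRB overlap the opposite-strand genes AC025569.1, over 7.15% of its exon bases, and AC083809.1, over 1.82%, in the GENCODE 29 annotation. The study's methods state no strand setting, so reads there cannot be told apart. The 2 overlapping genes did not exceed 0.341 and 0.0919 FPKM in any library, below every CD31+CD34+ and CD43+ value of PTPRB but within or above its values in H1 and APLNR+ cells.

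The ligands were at their highest in different populations. ANGPT2 had its highest mean in APLNR+ cells. ANGPT1 was near 1 FPKM in H1 and APLNR+ cells, had its lowest mean in CD31+CD34+ cells, in which the receptors peaked, and its highest in CD43+ cells.

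ANGPT2 measured 0.0496, 0.00551 and 0.00800 FPKM in H1 replicates 1 to 3. It measured 4.58, 5.83 and 4.85 FPKM in APLNR+ cells, 1.11, 1.40 and 1.43 FPKM in CD31+CD34+ cells, and 0.858, 1.12 and 0.748 FPKM in CD43+ cells. H1 libraries were lowest and APLNR+ libraries highest with no overlap, and the last 2 populations overlapped each other. From H1 to APLNR+ cells (5.08 ± 0.656 FPKM, SD, n = 3) ANGPT2 rose by 2.57 ± 0.11 on the log2 scale (SE, limma adjusted p = 1.39e-09). It then fell by 1.39 (limma adjusted p = 2.30e-07) to 1.31 ± 0.176 FPKM in CD31+CD34+ cells, and the APLNR+ mean was 3.87 times that mean. To CD43+ cells (0.910 ± 0.192 FPKM) the log2 change was -0.28, with a 95% interval of -0.51 to -0.05 (limma adjusted p = 0.0440, exact permutation p = 0.2 and 0.222 adjusted over 30 member comparisons), below the 2-fold limit.

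ANGPT2 lies opposite to MCPH1, a gene of chromosome condensation, with 78 shared exon bases or 1.15% of its own exon bases. MCPH1 ranged from 6.38 to 13.9 FPKM over the 12 libraries, H1 included, where ANGPT2 was at most 0.0496 FPKM.

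ANGPT1 measured 0.847, 1.47 and 0.897 FPKM in H1 replicates 1 to 3 and 1.30, 1.02 and 1.05 FPKM in APLNR+ cells. It measured 0.120, 0.138 and 0.220 FPKM in CD31+CD34+ cells and 6.28, 8.26 and 9.75 FPKM in CD43+ cells. H1 and APLNR+ libraries overlapped near 1 FPKM, CD31+CD34+ libraries lay below them all and CD43+ libraries above. From CD31+CD34+ (0.160 ± 0.0532 FPKM, SD, n = 3) to CD43+ cells (8.10 ± 1.74 FPKM) ANGPT1 rose by 2.95 ± 0.15 on the log2 scale (SE, limma adjusted p = 1.19e-08), and the mean was 50.7 times higher in FPKM. It was also raised in CD43+ cells against H1 by 2.13 (limma adjusted p = 5.78e-08) and against APLNR+ cells by 2.08 (limma adjusted p = 8.89e-08). From APLNR+ to CD31+CD34+ cells the log2 change was -0.87 ± 0.15 (SE, limma adjusted p = 0.000198), short of the 2-fold limit although the APLNR+ mean was 7.04 times the CD31+CD34+ mean in FPKM. With a pseudocount of 0.1 in place of 1 that change was -2.25 and was called. Between H1 (1.07 ± 0.344 FPKM) and APLNR+ cells (1.12 ± 0.155 FPKM) it was 0.05, with a 95% interval of -0.28 to 0.37 (limma adjusted p = 0.810).

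The ratio of the ligands within a library lay on both sides of equality. ANGPT1 over ANGPT2 was 17.1, 112 and 266 (lowest, median, highest) in H1, where ANGPT2 was close to 0 and the ratio is imprecise. It was 0.175, 0.216 and 0.284 in APLNR+ cells and 0.0986, 0.108 and 0.154 in CD31+CD34+ cells, and 7.32, 7.36 and 13.0 in CD43+ cells. ANGPT2 exceeded ANGPT1 in all APLNR+ and CD31+CD34+ libraries, and ANGPT1 exceeded ANGPT2 in all CD43+ libraries. Between the last 2 populations the ratio was higher in CD43+ cells by 6.23 ± 0.34 (log2, SE, exact permutation p = 0.1, 0.111 adjusted over the 30 ratio comparisons).

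**Figure D3:**
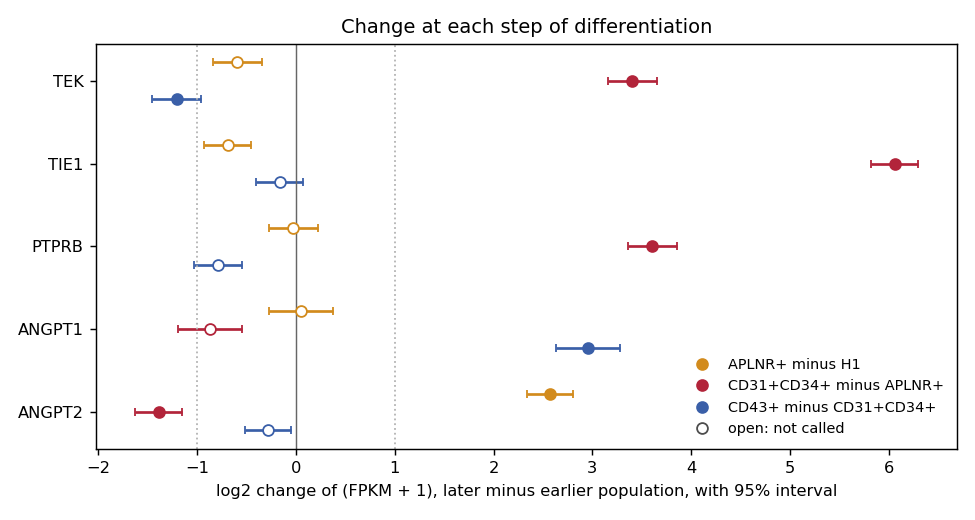
Log2 change of log2(FPKM + 1) with 95% intervals from limma for the 5 genes in the consecutive steps, filled where called, with dotted lines at a 2-fold change. TIE1, PTPRB and TEK rose by 6.06, 3.61 and 3.40 at the CD31+CD34+ step, and ANGPT1 rose by 2.95 and TEK fell by 1.21 at the CD43+ step.

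Against all genes, from H1 to APLNR+ cells 1 of the 5 genes (ANGPT2) was raised and 0 were lowered, where 15.9% of the genes tested were called, 8.3% raised and 7.62% lowered. The values did not overlap between those populations for 3 of the 5, against 66% of all genes. From APLNR+ to CD31+CD34+ cells 3 were raised (TEK, TIE1 and PTPRB) and 1 was lowered (ANGPT2), where 29.6% of genes were called, 12.5% raised and 17.1% lowered. All 5 were without overlap there, against 75.7% of all genes, and the median of their changes was 3.40 against -0.01 for all genes. From CD31+CD34+ to CD43+ cells 1 was raised (ANGPT1) and 1 lowered (TEK), where 14.4% of genes were called, 5.58% raised and 8.79% lowered. Here 3 of 5 were without overlap, against 58% of all genes.

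CD31+CD34+ cells were also set against H1 directly. TEK, TIE1, PTPRB and ANGPT2 were raised by 2.81, 5.37, 3.58 and 1.18 on the log2 scale (limma adjusted p = 4.53e-10, 2.01e-12, 5.78e-11 and 6.15e-07), where 40.1% of genes were called, 16.9% raised and 23.2% lowered. ANGPT1 had a log2 change of -0.82 (limma adjusted p = 0.000257) and was not called. A pseudocount of 0.1 gave -2.15 for ANGPT1, which was called. All 5 genes were without overlap, against 79% of all genes.

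CD43+ cells differed from APLNR+ cells by call in all 5 genes, where 33.6% of genes were called, 14.1% raised and 19.4% lowered, and all 5 were without overlap, against 75.4% of all genes. TIE1 and PTPRB were raised by 5.90 and 2.82 (limma adjusted p = 1.12e-12 and 5.01e-10), and ANGPT2 was lowered with a change of -1.67 (limma adjusted p = 3.33e-08). Against H1, 4 of the 5 were raised in CD43+ cells, where 37.1% of genes were called, 14.6% raised and 22.5% lowered. Among them TIE1 and PTPRB rose by 5.21 and 2.79 (limma adjusted p = 2.09e-12 and 4.31e-10), and ANGPT2 stood above H1 by 0.90 (limma adjusted p = 7.90e-06), which was not called. With a pseudocount of 0.1 the last of these was 3.06 and was called. All 5 were without overlap, against 76.3% of all genes. These comparisons share populations and are not independent of the consecutive steps.

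Summed levels of cell type markers also changed between the populations. The summed FPKM of the 12 endothelial markers lay at 22.3–28.4 for H1 and 68.5–82.0 for APLNR+ libraries. It lay at 750–996 for CD31+CD34+ and 398–508 for CD43+ libraries. Of these markers 2, 10 and 2 were raised and 0, 0 and 6 lowered in the consecutive steps. Over all genes, 8.3%, 12.5% and 5.58% were raised and 7.62%, 17.1% and 8.79% lowered. The endothelial list includes PECAM1 and CD34, and the blood list SPN, whose products were used to collect the cells. The 10 blood markers summed to 25.6–33.3 FPKM in CD31+CD34+ and 2343–2860 FPKM in CD43+ libraries, where the 8 that passed the filter were all raised. The 9 mural and mesenchymal markers, a class that includes known sources of ANGPT1, summed to 882–919 FPKM in CD31+CD34+ libraries and 161–200 FPKM in CD43+ libraries. At that step 4 were lowered (TAGLN, RGS5, COL1A1 and COL1A2), and ACTA2 was raised, from a mean of 13.3 to 34.8 FPKM. PDGFRB, with means of 13.2 and 17.5 FPKM, was not called. The blood sum in CD43+ cells rested largely on HBG2, ITGA2B and HBE1 (means of 1324, 575 and 525.5 FPKM). The mural and mesenchymal sum in CD31+CD34+ cells rested largely on the 4 lowered genes. The ANGPT1 rise accompanied a higher sum of blood markers and a lower sum of mural and mesenchymal markers, and their part in the result was not tested. The 7 mesoderm markers summed to 21.9–29.4 FPKM in H1 and 590–654 FPKM in APLNR+ libraries. They summed to 602–751 FPKM in CD31+CD34+ libraries and 113–152 FPKM in CD43+ libraries. From APLNR+ to CD31+CD34+ cells, however, only KDR was raised and 5 of the 7 were lowered, among them MIXL1, from a mean of 71.3 to 1.10 FPKM. The sum in CD31+CD34+ cells rested largely on APLNR (mean of 403 FPKM) and on KDR (277 FPKM), which is also on the endothelial list. The 6 pluripotency markers summed to 1512–1590 FPKM in H1 and 42.6–50.4 FPKM in CD43+ libraries.

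Further genes of the TIE pathway moved in both directions. The list held 29 ligands, integrin partners, adaptors and effectors beside the 5 genes, of which 27 passed the filter on low values. In the consecutive steps 5, 5 and 3 of the 27 were raised and 1, 5 and 7 were lowered. Over all genes, 8.3%, 12.5% and 5.58% were raised and 7.62%, 17.1% and 8.79% were lowered, and the lowered share of the list at the CD31+CD34+ step was near that of all genes. The medians of their changes were 0.23, -0.03 and -0.37, against -0.12, -0.01 and -0.00 over all genes. ANGPT4, another angiopoietin, was not tested and had means between 0.00973 and 0.121 FPKM, and LECT2, a ligand of TIE1, was listed at 0 in every library.

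Among integrins that bind angiopoietins, ITGA5 had means of 6.46, 70.1, 169 and 45.5 FPKM, in order of the stages from H1 to CD43+ cells. It rose by 3.25 and 1.25 on the log2 scale and then had a change of -1.87 (limma adjusted p = 3.40e-10, 1.11e-06 and 6.49e-08). ITGB3, an integrin chain that is also a platelet and megakaryocyte protein, had means of 0.0561, 0.294, 0.674 and 96.1 FPKM and rose by 5.85 at the CD43+ step (limma adjusted p = 4.17e-12). SVEP1, an extracellular matrix protein that binds TIE1, rose by 2.24 from H1 to APLNR+ cells (limma adjusted p = 5.81e-09), with means of 0.120, 4.30, 3.60 and 1.30 FPKM. Its mean was highest in APLNR+ cells, but the change from there to CD31+CD34+ cells was not called (-0.20, limma adjusted p = 0.111). ANGPT2, in contrast, was lowered at that step.

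Of the intracellular effectors, NOS3, the endothelial nitric oxide synthase, had means of 1.69, 1.77, 40.7 and 6.41 FPKM. It was raised by 3.92 in CD31+CD34+ cells and then had a change of -2.50 (limma adjusted p = 2.92e-10 and 2.22e-08). KLF2, a transcription factor of endothelial quiescence, had means of 0.0527, 0.235, 10.9 and 0.785 FPKM, with changes of 3.22 and -2.69 at the same steps (limma adjusted p = 3.68e-08 and 3.10e-07). Both thus peaked in CD31+CD34+ cells, as TEK did, and were lowered in CD43+ cells, where the change of TIE1 was not called.

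DOK2, the docking protein that binds activated TEK and is also a blood cell adaptor, rose by 2.08 at the CD43+ step (limma adjusted p = 4.31e-08) to a mean of 3.50 FPKM, from 0.0542 FPKM in CD31+CD34+ cells. The adaptor SHC1 rose by 1.96 from APLNR+ to CD31+CD34+ cells (limma adjusted p = 1.76e-06), with means of 46.0 and 183 FPKM. PIK3R1, a regulatory subunit of phosphoinositide 3-kinase, rose by 1.90 to a mean of 10.1 FPKM in APLNR+ cells and then changed by -1.38 (limma adjusted p = 6.93e-08 and 7.61e-07). The other 11 genes called in a consecutive step are included in the counts above.

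**Figure D4:**
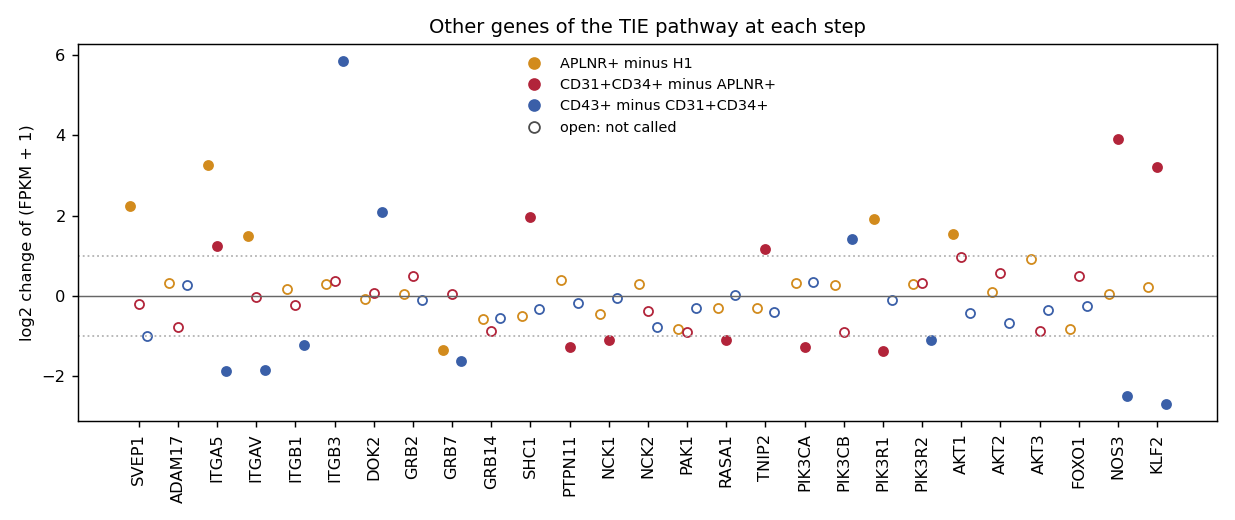
Log2 change of (FPKM + 1) of the 27 tested TIE pathway genes at each consecutive step, 1 point per gene and step, filled where called, with dotted lines at a 2-fold change. NOS3 and KLF2 rose by 3.92 and 3.22 at the CD31+CD34+ step and were lowered at the next, and ITGB3 rose by 5.85 at the CD43+ step.

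Related families were counted too. Of 8 angiopoietin-like genes, which encode secreted proteins that do not bind TEK, 3 passed the filter. ANGPTL4, a lipase inhibitor, rose by 2.42 in CD31+CD34+ cells (limma adjusted p = 1.45e-08) to 8.42 FPKM and then changed by -1.44 (limma adjusted p = 2.49e-06). ANGPTL6 rose by 2.18 in CD43+ cells (limma adjusted p = 8.97e-10), to a mean of 3.997 FPKM. Of the 4 receptor phosphatases related to PTPRB, only PTPRJ passed the filter, with means of 3.08, 2.29, 2.24 and 1.43 FPKM and no call in a consecutive step.

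Of 4 junction partners of PTPRB, 1, 3 and 0 were raised and 0, 0 and 3 lowered in the consecutive steps, where 8.3%, 12.5% and 5.58% of all genes were raised and 7.62%, 17.1% and 8.79% lowered. CDH5, the cadherin to which PTPRB binds, had means of 0.172, 0.0591, 96.8 and 33.9 FPKM, and KDR, the main VEGF receptor and another PTPRB substrate, 24.1, 57.3, 277 and 110.5 FPKM. The remaining members of the list were JUP, a junction protein that was raised and then lowered at the last 2 steps, and CTNND1, which was not called in any.

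The genes with the most similar pattern were ranked by Pearson correlation of log2(FPKM + 1) over the 12 libraries among 10482 genes. The libraries fall into 4 populations, so these values describe shared order of populations and carry no test. TEK was closest to RASIP1 (r = 0.996), ERG (0.996), PPP1CA (0.994), FLT4 (0.993) and S100A16 (0.993). RASIP1 acts in vessel lumen formation, ERG is an endothelial ETS factor and FLT4 is a receptor for lymphatic VEGFs. TIE1 was closest to SCARF1 (0.999), FAM212A (0.998), AFAP1L1 (0.997), TNFRSF1B (0.997) and SAMSN1 (0.997), none of which was among the 5 closest to TEK.

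PTPRB was closest to THSD1 (r = 0.999), CDH5 (0.999), CLIC1 (0.998), NID2 (0.998) and TMEM204 (0.998). Genes close to ANGPT2 included LYPD6B (0.993), SERPINB9 (0.993), APOBEC3G (0.991) and SNAI2 (0.991), where SNAI2 is a factor of mesenchymal transition. ANGPT1 had the least close neighbours, which were the long noncoding RNA AC084033.3 (0.979), the heme catabolism enzyme BLVRB (0.970), C6orf48 (0.968), PLP2 (0.967) and GSTM2 (0.966). APOBEC3G and GSTM2 belong to families of near-identical genes between which counting can split reads. Between the 5 genes themselves, r was 0.949 for TEK with TIE1, 0.975 for TEK with PTPRB, 0.983 for TIE1 with PTPRB and -0.127 for ANGPT1 with ANGPT2.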

How the data were processed

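RNA-seq of 12 libraries was analysed, 3 in each of 4 populations, grouped by the labels. The authors deposited 1 table of FPKM per gene. The submitters' processing notes name hg19, BWA, Bowtie and RSEM without roles, and the annotation is not given in the sources used here. Of 58365 gene lines, 345 symbols were on several lines and the line of highest mean was kept. Genes at 1 FPKM or more in at least 3 libraries (14840) were fitted in limma 3.58.1 (R 4.3.3) on log2(FPKM + 1), with 1 model of the 4 populations, a trended variance prior and Benjamini-Hochberg adjustment over all genes. The script was tested on simulated data. Single values were also compared by exact two-sided permutation. The members and gene lists were chosen with earlier results of these data known. By rule, the 5 genes are named throughout, with at most 8 called genes of each further list by size of change and the 5 genes of highest correlation with each member among those with a population mean of at least 5 FPKM. Of these, 1 gene is not reported here. Marker, junction and family genes outside it were named as background after their values were seen. Other pseudocounts, filters, scalings, pairwise fits, a replicate block and leaving out libraries were tried. Exon overlaps came from GENCODE 29 and promoters from RefSeq on GRCh38.p14. Depth in reads is unknown, so no counting intervals are given.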

Additional observations from a re-analysis of the deposited data

How the results depend on the processing

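No called change of TEK, TIE1, ANGPT1, ANGPT2 or PTPRB lost its call or its direction under the alternatives that gave it a value. A filter at a mean of 5 FPKM left ANGPT1, ANGPT2 and PTPRB untested. With a pseudocount of 0.1, TIE1 from H1 to APLNR+ cells (-1.26), ANGPT1 from APLNR+ to CD31+CD34+ cells (-2.25), ANGPT1 from H1 to CD31+CD34+ cells (-2.15) and ANGPT2 from H1 to CD43+ cells (3.06) were called as well. The same setting gave 5.43 for ANGPT2 from H1 to APLNR+ cells, 5.88 for PTPRB at the CD31+CD34+ step and 4.98 for ANGPT1 at the CD43+ step, as its construction enlarges changes of low genes. The change from H1 to APLNR+ cells had no stable direction for ANGPT1, at -0.088 to 0.21 when libraries were left out (-0.088 without replicate 1 of all populations, -0.03 without H1 replicate 1, -0.01 without H1 replicate 3 and -0.01 without APLNR+ replicate 1), or for PTPRB, at -0.053 to 0.020 when libraries were left out and 0.0037 when scaled to the protein-coding sum. Neither was called.

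Counts of called genes moved by over 1.5 times with a pseudocount of 0.1, to 3632 from H1 to APLNR+ cells and 3605 from CD31+CD34+ to CD43+ cells, and with the filter at a mean of 5 FPKM, to 1193 and 1313 for the same steps, 3752 for CD31+CD34+ against H1, 3080 for CD43+ against APLNR+ and 3309 for CD43+ against H1, fewer genes being tested. Scaling to the protein-coding sum moved the raised share of calls from 52.1% to 68.2% (APLNR+ against H1), from 42.3% to 29.1% (CD31+CD34+ against APLNR+) and from 42.1% to 25.5% (CD43+ against APLNR+), moved the median of all genes in the first of these from -0.12 to 0.07, and gave 4 raised and 9 lowered TIE pathway genes at the CD31+CD34+ step. The replicate numbers were not taken to pair libraries in the main fit, which therefore ignores any sharing by number. Pairs of the same number were the minority (6 for each number, against 36 of different numbers). Even so, 7 of 12 libraries matched their own number best in their deviations. Replicate 1 libraries shared deviations, as all 6 of their pairs correlated positively, at 0.196 to 0.429. Pairs of replicate 2 lay at 0.0254 to 0.247 and pairs of replicate 3 at -0.0214 to 0.269, against -0.404 to 0.289 for different numbers. Replicate 1 was also the shallowest in each population. With the replicate number as a block, 2369, 4410 and 2140 genes were called in the consecutive steps, and no call of the 5 genes changed. FPKM carries no read number, so the precision of values near 0, as for ANGPT2 in H1 and ANGPT1 in CD31+CD34+ cells, rests on 3 libraries alone.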
